A study of Mus musculus with 24 samples.

Results

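The cytosolic ribosomal protein genes encode the proteins of the large (Rpl) and small (Rps) subunits of the ribosome. They were taken from a hippocampal count table of PS19 mice by symbol: Rpl or Rps followed by a number and at most a single letter, plus Rplp0, Rplp1, Rplp2 and Rpsa. Names of kinases of Rps6, of mitochondrial ribosomal proteins and of pseudogenes marked -ps were left out. This gave 81 of the 24058 symbols in the table. Of these, 80 passed the filter on low counts and were tested among 16118 genes. Rpl10l, a retrogene known from testis, did not pass and had a count of 0 in all 24 libraries.

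Every animal carried the P301S tau transgene of the PS19 line, a mouse model of tau pathology, in the controls too. Groups differed at Trem2, the gene of a microglial cell surface receptor for lipids. The R47H-TREM2 mice had a human TREM2 allele with the R47H change, a risk variant for Alzheimer's disease, over a mouse allele: 5 females and 5 males with the title prefix LG72. Their references were 3 females and 2 males of LG72 with the mouse gene alone (Trem2+/+). The WT-TREM2 mice had a human TREM2 allele of the common form over a mouse allele: 6 females of LG73, set against 3 Trem2+/+ females of LG73. R47H-TREM2 and WT-TREM2 never shared a prefix, so the allele and the prefix cannot be told apart in a comparison between them. The labels give no ages and no promoter for the tau transgene, and do not say what the prefixes stand for. The labels do not state that each library is a separate animal, so the p-values reflect only library-to-library spread, which may be technical. Each library is named here by its group and its order of deposit.

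Ribosomal proteins are made in near-equal amounts and assembled on ribosomal RNA in the nucleolus. Their mRNAs are short, very abundant and begin with a run of pyrimidines after a cytosine (the 5′ terminal oligopyrimidine tract, TOP), through which mTOR signalling sets their translation as a group. Mammalian genomes hold many processed pseudogene copies of these genes, and some members have a paralog made chiefly in muscle or testis. In neurons, ribosomes in dendrites supply the local protein synthesis on which lasting synaptic change depends. In bulk tissue, fewer cells of a type and less RNA per cell cannot be told apart.

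Depth ran from 13261478 to 23807390 counts per library. All 6 neuron markers (Snap25, Syt1, Slc17a7, Gad1, Gad2 and Rbfox3) were present, with a summed level of 3795 to 7301 CPM (counts scaled to a common library size) over the 24 libraries. Prox1, Wfs1 and Zbtb20, genes of hippocampal fields picked after the data were seen, summed to 42.8 to 228 CPM. In 6 libraries, called the doubted libraries here, a gene typical of another tissue or brain region was high. R47H-TREM2 female 5 and LG73 Trem2+/+ female 3 had the pituitary hormone Prl above 50 CPM, and LG72 Trem2+/+ female 1 had the olfactory marker Omp above 50 CPM. LG72 Trem2+/+ female 3 and WT-TREM2 females 2 and 5 had Adora2a, a receptor of striatal neurons, above 30 CPM. The liver gene Alb was not used to choose these 6. It ran from 1.72 to 225 CPM over the 24 libraries, with a median of 65.2 CPM. Its highest value was in R47H-TREM2 male 4, so libraries outside the 6 carried a gene typical of another tissue too. Trem2 measured 18.1 ± 8.96 CPM in R47H-TREM2 females and 16.5 ± 10.3 CPM in Trem2+/+ females of LG72, 11.5 ± 3.20 CPM in R47H-TREM2 males and 24.1 ± 4.60 CPM in Trem2+/+ males, and 12.4 ± 11.1 CPM in WT-TREM2 females and 11.8 ± 4.98 CPM in Trem2+/+ females of LG73 (SD, n = 5, 3, 5, 2, 6 and 3). The sources used here do not say if human TREM2 reads were counted under mouse Trem2, so these levels cannot serve to check the labels.

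The start of a TOP mRNA is the sequence feature that the members are known for. Windows of 30 bases, from 15 bases before to 15 bases after the annotated start of transcription, were read from RefSeq promoters of build GRCm38.p6 for the 60 members that had an entry. CTTTC on the sense strand lay in 16 of these 60 windows (26.7%), against 1073 of 27025 (3.97%) for all genes. The 6 members shown first, which span high and low levels, carry it, with every CTTTC in capitals, and Rpl35 and Rps27 hold it 2 times. They are followed by Rpl37a, the member with the smallest p in males, and Rpl3l, the muscle paralog of Rpl3, which have no CTTTC in the window. Start sites differ by some bases between annotations, so the place of the tract is approximate.

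Rpl13a (chr7:45128731-45128760, minus strand): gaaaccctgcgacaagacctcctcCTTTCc
Rplp2 (chr7:141447636-141447665, plus strand): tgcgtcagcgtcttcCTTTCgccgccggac
Rpl38 (chr11:114668565-114668594, plus strand): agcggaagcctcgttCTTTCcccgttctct
Rpl28 (chr7:4792950-4792979, plus strand): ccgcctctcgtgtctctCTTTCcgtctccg
Rpl35 (chr2:39005117-39005146, minus strand): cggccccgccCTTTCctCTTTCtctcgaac
Rps27 (chr3:90213634-90213663, minus strand): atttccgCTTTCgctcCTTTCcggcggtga
Rpl37a (chr1:72711245-72711274, plus strand): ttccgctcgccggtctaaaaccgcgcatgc
Rpl3l (chr17:24727811-24727840, plus strand): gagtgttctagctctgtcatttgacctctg

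Over the whole promoter entry, 250 bases before to 50 bases after the start, sense CTTTC was found in 65.0% of the 60 members and 34.5% of all 27025 promoters. CCGGAAG, the core that ETS factors are known to bind, was found on either strand in 40.0% of members and 9.12% of all promoters. TATAAA on the sense strand was found in 8.33% of members and 8.88% of all promoters. None of the 3 motifs contains another, and a match is only a run of letters, not a site. The 16 members with CTTTC at the start had median log2 fold changes of 0.50 in R47H-TREM2 females, 0.63 in R47H-TREM2 males and 0.36 in WT-TREM2 females over their Trem2+/+ groups. The 43 tested members with a window and no CTTTC had 0.62, 0.88 and 0.41 in the same 3 comparisons.

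The members took a share of all counts that varied 4.44-fold between libraries. In R47H-TREM2 females 1 to 5 the share was 2.62%, 0.936%, 1.54%, 2.81% and 3.12%. In the 3 Trem2+/+ females of LG72 it was 2.56%, 1.16% and 0.809%. R47H-TREM2 females 1, 4 and 5 lay above all 3 references and female 2 lay between the lower 2, so the groups overlapped. In R47H-TREM2 males 1 to 5 the share was 1.20%, 1.26%, 1.64%, 2.78% and 1.21%, against 1.11% and 0.703% in the 2 Trem2+/+ males. All 5 R47H-TREM2 males lay above both references, 3 of them by a small margin. In the 6 WT-TREM2 females it was 0.829%, 2.0%, 1.41%, 1.07%, 1.89% and 1.74%, against 1.37%, 0.916% and 1.09% in the 3 Trem2+/+ females of LG73. WT-TREM2 female 1 was the lowest of these 9 libraries, and females 2, 5 and 6 were the 3 highest. By group mean the order was R47H-TREM2 females (2.21% ± 0.926), R47H-TREM2 males (1.62% ± 0.675), LG72 Trem2+/+ females (1.51% ± 0.926), WT-TREM2 females (1.49% ± 0.470), LG73 Trem2+/+ females (1.13% ± 0.229) and Trem2+/+ males (0.907% ± 0.288; SD, n = 5, 5, 3, 6, 3 and 2). Each neighbouring pair in this order differed by less than the SD of its more variable group.

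**Figure D1:**
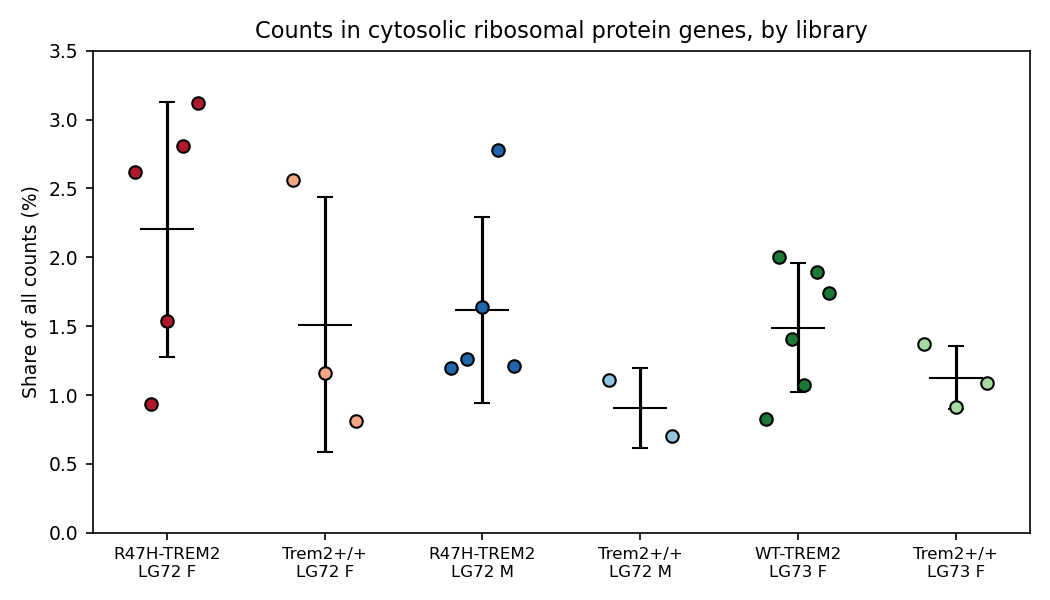
Share of all counts, in percent, that fell in the 81 ribosomal protein genes, by library. Each point is a library, the horizontal mark the group mean and the bar 1 SD. R47H-TREM2 females 1, 4 and 5, R47H-TREM2 male 4 and LG72 Trem2+/+ female 1 lie between 2.56% and 3.12%, above the rest.

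R47H-TREM2 females had higher levels than Trem2+/+ females of LG72 for 77 of the 80 members, with a median log2 fold change of 0.61. No member passed an adjusted p under 0.05 (edgeR quasi-likelihood test, smallest adjusted p = 0.255), and 0.0% of all 16118 genes did. At an unadjusted p under 0.05, 12 members were higher and 0 lower, where 8.68% of all genes were higher. That count moved with single libraries. It was 0 without LG72 Trem2+/+ female 3, 57 without female 1 and 5 without female 2. It was 3, 32, 6 and 5 without R47H-TREM2 females 1, 2, 4 and 5. The share of all genes in these fits is not given here, so the counts show only how far they depend on single libraries. At the same unadjusted p DESeq2 had 15 members higher, where 9.3% of all genes were, and limma-voom 24, where 5.71% were. A log2 fold change above 0 was found for 50.5% of all genes, with a median of 0.00. The 48 large-subunit members had a median of 0.58 and the 32 small-subunit members 0.63. The median was 0.29 without LG72 Trem2+/+ female 3, 0.41 without female 2 and 1.10 without female 1.

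Rps28, a small-subunit protein, measured 47.2, 13.5, 33.5, 58.0 and 64.5 CPM in the R47H-TREM2 females, against 31.1, 18.3 and 11.5 CPM in the Trem2+/+ females. Its log2 fold change was 1.10 (SE 0.41, edgeR adjusted p = 0.255). Of the 5 R47H-TREM2 libraries 4 lay above all 3 references, and female 2 lay between them. Rpl3, which lies near the catalytic centre of the large subunit, measured 397.8, 76.5, 141.8, 467.7 and 333.6 CPM, against 185.7, 124.2 and 79.9 CPM in the references. Its log2 fold change was 1.13 (SE 0.43, edgeR adjusted p = 0.264), and female 2 was below all 3 references. Rps27l, a p53-inducible paralog of Rps27, measured 70.2, 14.9, 22.2, 38.4 and 47.2 CPM, against 31.2, 14.8 and 6.88 CPM. Its log2 fold change was 1.13 (SE 0.47, edgeR adjusted p = 0.289), with 3 of 5 libraries above all references. Rpl23 (log2 fold change 0.83, SE 0.34) and Rpl24 (0.72, SE 0.31), both of the large subunit, completed the 5 smallest p-values. Without LG72 Trem2+/+ female 3 Rps27l stood at 0.74, Rpl23 at 0.51 and Rpl24 at 0.41, and without female 1 Rps27l stood at 1.79.

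The groups did not overlap for only 1 member, Rpl39l, a paralog of Rpl39 known from testis, where 3.59% of all genes were higher without overlap. It was near the limit of detection, at 1.42, 0.269, 0.463, 0.274 and 0.706 CPM in R47H-TREM2 females and 0.167, 0.224 and 0.0425 CPM in Trem2+/+ females. Members below 0 were Rps4l, annotated by GENCODE as a transcribed processed pseudogene (log2 fold change −0.37, SE 0.32), Rpl3l (−0.71, SE 0.93, at most 0.793 CPM in any library) and Rps7 (−0.16, SE 0.58). Without the doubted libraries, which leaves 1 reference female, these 3 stood at 0.05, 0.85 and 1.07 and the median of all 80 members at 0.74.

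R47H-TREM2 males had higher levels than Trem2+/+ males for 80 of 80 members, with a median log2 fold change of 0.78. No member was called (edgeR smallest adjusted p = 0.779) and 0.0% of all genes were. At an unadjusted p under 0.05, 17 members were higher and 0 lower, where 2.67% of all genes were higher. That count was 11 and 8 without R47H-TREM2 males 3 and 4, in fits for which the share of all genes is not given here. It was also lower without either Trem2+/+ male, which leaves 1 reference. At the same unadjusted p DESeq2 had 22 members higher, where 3.44% of all genes were, and limma-voom 5, where 1.64% were. A log2 fold change above 0 was found for 53% of all genes, with a median of 0.03. Every R47H-TREM2 male lay above both Trem2+/+ males for 26 members, where 6.38% of all genes did so. Large-subunit members had a median of 0.73 and small-subunit members 0.87. The median was 0.47 without R47H-TREM2 male 4, and 0.55 without Trem2+/+ male 2, which leaves 1 reference.

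Rpl37a, a zinc-binding protein of the large subunit, measured 18.1, 20.4, 26.9, 32.5 and 10.9 CPM in R47H-TREM2 males and 10.4 and 8.61 CPM in Trem2+/+ males (log2 fold change 1.19, SE 0.41, edgeR adjusted p = 0.779). Rps16, whose protein lies near the decoding site of the small subunit, measured 20.2, 35.9, 58.0, 41.1 and 10.2 CPM, against 9.28 and 9.27 CPM (1.83, SE 0.70, edgeR adjusted p = 0.779). In both genes male 5 was the lowest of the 5, just above the references. Rpl13 (1.31, SE 0.48) and Rpl35a (1.49, SE 0.56) had no overlap either, and Rpl35 (1.49, SE 0.57) had male 5 at 41.6 CPM between the references at 37.2 and 42.7 CPM. Rpl13a, a large-subunit protein with a known second role in silencing inflammatory mRNAs, measured 889, 1145, 1571, 3496 and 1190.1 CPM, against 991 and 540.2 CPM.

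WT-TREM2 females had higher levels than Trem2+/+ females of LG73 for 73 of 80 members, with a median log2 fold change of 0.41. No member was called (edgeR smallest adjusted p = 0.86) and 0.0% of all genes were. At an unadjusted p under 0.05 0 members passed in either direction, where 2.28% of all genes were higher. That count was 3 without LG73 Trem2+/+ female 1 and 2 without WT-TREM2 female 1, in fits for which the share of all genes is not given here. At the same unadjusted p DESeq2 had 0 members higher, where 2.6% of all genes were, and limma-voom 13, where 8.55% were. A log2 fold change above 0 was found for 54.6% of all genes, with a median of 0.04. Large-subunit members had a median of 0.37 and small-subunit members 0.44. Without the doubted libraries the median was 0.11, with 60 of 80 above 0.

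Rplp1, an acidic protein of the ribosomal stalk, had the smallest p. It measured 301, 953, 753, 561, 651 and 628 CPM in WT-TREM2 females and 454, 326 and 325 CPM in Trem2+/+ females (log2 fold change 0.80, SE 0.45, edgeR adjusted p = 0.86). All but WT-TREM2 female 1 lay above the 3 references. Rpl27 (0.68, SE 0.40), Rpl34 (0.61, SE 0.38) and Rps7 (0.88, SE 0.58) followed, and the groups of each overlapped. Without LG73 Trem2+/+ female 1 these 3 stood at 1.40, 0.93 and 1.40. Rpl27 stood at 0.45 and 0.41 without Trem2+/+ females 2 and 3, and Rps7 at 0.52 without WT-TREM2 female 6. Every WT-TREM2 library lay above every reference for Rps29, a zinc-binding protein of the small subunit (0.54), where 1.37% of all genes were higher without overlap. The reverse held for Rpl3, at 104.7, 133.3, 178.9, 185, 182.5 and 133.7 CPM in WT-TREM2 females and 227.7, 241 and 241.5 CPM in Trem2+/+ females (−0.63, SE 0.39, edgeR adjusted p = 0.86), where 1.45% of all genes were lower without overlap. Other members below 0 with the smallest p-values were Rpl28 (−0.28, SE 0.20), Rpl39l (−0.68, SE 0.85), Rpl10 (−0.09, SE 0.32) and Rps18 (−0.11, SE 0.43).

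**Figure D2:**
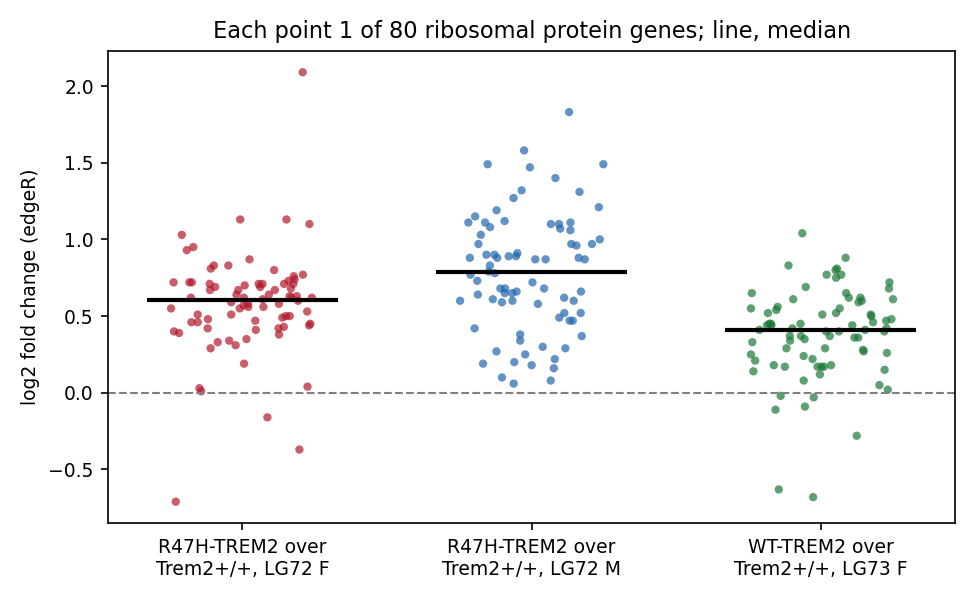
The log2 fold change of each of 80 ribosomal protein genes in the 3 genotype comparisons, on the edgeR scale, with a line at the median. The medians are 0.61, 0.78 and 0.41, and 77, 80 and 73 of 80 genes lie above 0.

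Differences between these effects were tested in the same model. The R47H effect in females minus that in males had a median of −0.21 over the members, with 21 of 80 above 0, no member called and 0.0% of all genes called (edgeR, smallest adjusted p of a member = 1.0). The R47H effect in LG72 females minus the WT effect in LG73 females had a median of 0.22, with 58 of 80 above 0, no member called and 0.0% of all genes called (edgeR, smallest adjusted p = 0.358). At an unadjusted p under 0.05, 3 members were higher there, a share of the 80 below the 5.44% of all genes that were. Of these, Rpl3 had a difference of 1.76 (SE 0.58, edgeR adjusted p = 0.358), Rpl28 0.70 (SE 0.30) and Rpl39l 2.77 (SE 1.28). For Rpl3 the R47H effect was 1.13 and the WT effect −0.63. Its levels in the references differed too. Trem2+/+ females measured 185.7, 124.2 and 79.9 CPM in LG72, and 227.7, 241 and 241.5 CPM in LG73. The difference between the effects therefore includes a difference between references of the same genotype. Trem2+/+ females of LG72 minus those of LG73, which have the same genotype, had a median of 0.41, with 70 of 80 above 0, no member called and 0.0% of all genes called (edgeR, smallest adjusted p = 0.998). This median between references was as large as that of WT-TREM2 over Trem2+/+, and was −0.16 without LG72 Trem2+/+ female 1 and −0.02 without the doubted libraries.

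The members varied together from library to library, within groups as well as between them. The median correlation between 2 members over the 24 libraries was 0.78, and 99.5% of pairs were above 0. The first principal component held 75.4% of the members' variance, and 19.1% of that of the other tested genes. A member's SD over libraries had a median of 0.67 on the log2 scale, against 0.41 for other genes. Of the 80 tested members, 60 had a correlation above 0.8 with the mean of the others, and 78 had one above 0.5. The members least like the rest were Rpl3l (r = 0.15), Rps4l (0.27), Rpl39l (0.52), Rpl28 (0.59) and Rpl10 (0.60). After centring on group means these correlations were 0.19, 0.74, 0.51, 0.58 and 0.59, so Rps4l varied with the rest within groups.

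Short transcripts shared this pattern. The transcripts of the members had a median length of 872 nucleotides, from 345 for Rps27 to 5179 for Rps15a, against 2951 for other tested genes. Of the members, 63.7% were under 1000 nucleotides, and of other genes 6.63%. For each library the slope of log2 CPM on log2 transcript length was computed over 15281 other genes, after centring each gene on its mean, with no member in it. A negative slope means that short transcripts were relatively high. The score of a library was the mean centred log2 CPM of the 80 members. Over 24 libraries score and slope had a Pearson r of −0.84 and a Spearman rho of −0.91, and they are measured in the same libraries. Within LG72 r was −0.92 (n = 15), within LG73 −0.94 (n = 9), and after centring each on its group mean −0.80. Without the 2 libraries with the most extreme slopes, Trem2+/+ male 2 and WT-TREM2 female 2, it was −0.90, and without the doubted libraries −0.87. All 80 members had a negative correlation with the slope (median −0.75). Depth had r of −0.31 with the score.

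**Figure D3:**
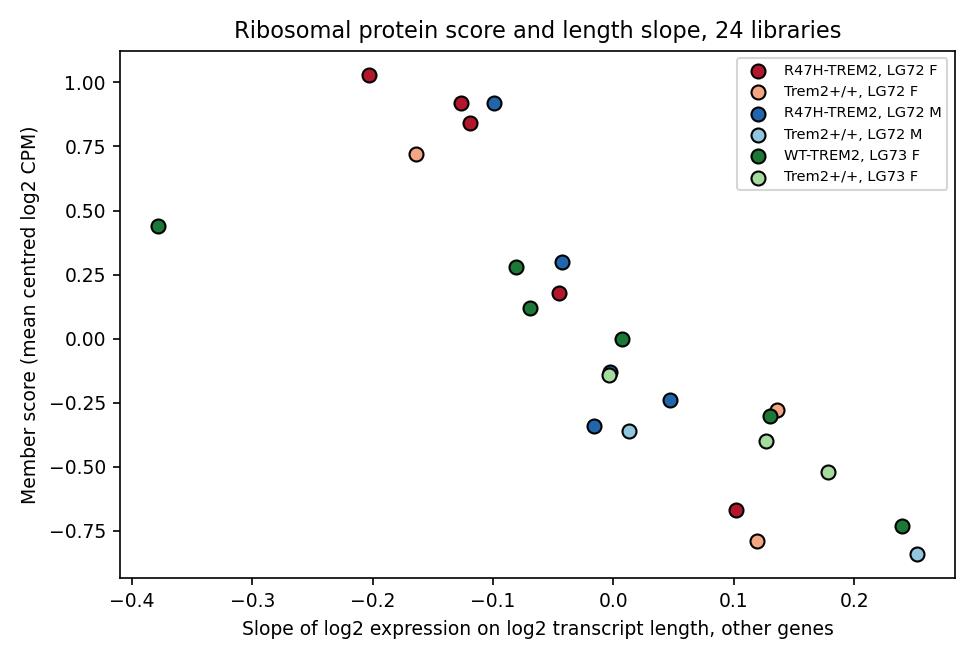
The member score of each library (mean centred log2 CPM of 80 ribosomal protein genes) against the library's slope of log2 CPM on the log2 length of transcripts over other genes, with colours for the 6 groups. Libraries with a steeper negative slope have a higher score (r = −0.84), in the groups of both prefixes.

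No difference in the slope between groups passed its test. It averaged −0.078 ± 0.115 in R47H-TREM2 females and 0.03 ± 0.169 in Trem2+/+ females of LG72 (SD, n = 5 and 3; two-sided exact permutation p = 0.357). It averaged −0.023 ± 0.054 in R47H-TREM2 males and 0.133 ± 0.169 in Trem2+/+ males (SD, n = 5 and 2; two-sided exact permutation p = 0.0952, the smallest possible being 0.0476). It averaged −0.025 ± 0.212 in WT-TREM2 females and 0.1 ± 0.094 in Trem2+/+ females of LG73 (SD, n = 6 and 3; two-sided exact permutation p = 0.417). Adjusted over the 3 tests by Benjamini and Hochberg's method the values were 0.417, 0.286 and 0.417 (exact permutation).

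Fold changes of other genes were smaller for longer transcripts in each of the 3 genotype comparisons. Their Spearman correlation with log2 length was −0.23 in R47H-TREM2 females, −0.37 in R47H-TREM2 males and −0.39 in WT-TREM2 females. Among the members it was weaker, at −0.17, −0.28 and −0.05. In R47H-TREM2 females over Trem2+/+ females of LG72 other genes had medians of 0.39 under 600 nucleotides, 0.31 at 600 to 1000, 0.12 at 1000 to 2000, −0.01 at 2000 to 4000 and −0.12 at 4000 and over. The members had 0.64, 0.62, 0.56, 0.55 and 0.51 in these classes, above the other genes in each (18, 33, 24, 4 and 1 members). In males the other genes had 0.62, 0.45, 0.19, 0.02 and −0.16, and the members 0.97, 0.79, 0.67, 0.64 and 0.60. In WT-TREM2 over Trem2+/+ females of LG73 the other genes had 0.35, 0.31, 0.22, 0.04 and −0.12, and the members 0.43, 0.40, 0.42, 0.34 and 0.29. With the slope of each library as a covariate in the model the members' medians were 0.29 in R47H-TREM2 females, 0.20 in R47H-TREM2 males and −0.04 in WT-TREM2 females, with 70, 59 and 32 of 80 above 0. Under 600 and at 600 to 1000 nucleotides, other genes then had 0.13 and 0.08 in R47H-TREM2 females, and members 0.29 and 0.31. In males other genes had 0.20 and 0.10, and members 0.44 and 0.21. In WT-TREM2 females other genes had −0.04 in both classes, and members −0.05 and −0.01.

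**Figure D4:**
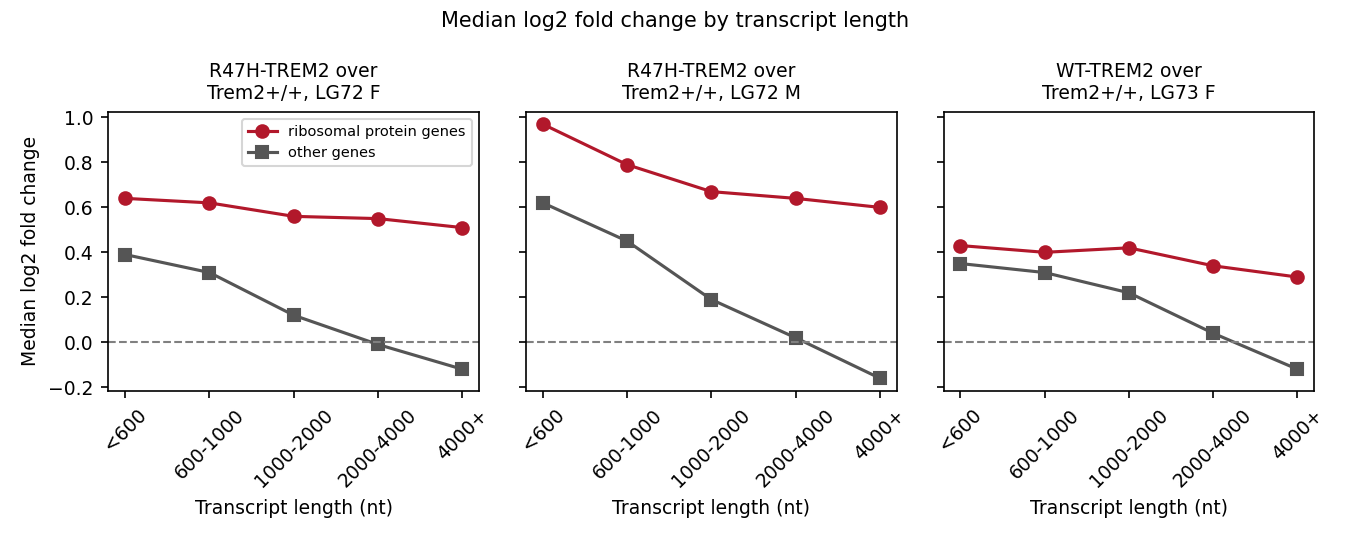
Median log2 fold change by transcript length class, in nucleotides, for ribosomal protein genes and for other tested genes, in the 3 genotype comparisons. The medians are lower for longer transcripts in other genes, and the ribosomal protein genes lie above the other genes in every class.

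Neuron markers varied in the other direction. The neuron marker score correlated with the member score at r = −0.84 and with the length slope at r = 0.82, over 24 libraries. The summed level of the 6 neuron markers was 3795 to 6353 CPM in R47H-TREM2 females and 5119 to 7277 CPM in Trem2+/+ females of LG72, 4474 to 6687 CPM in R47H-TREM2 males and 6215 to 7020.1 CPM in Trem2+/+ males, and 4677 to 7301 CPM in WT-TREM2 females and 6089 to 6895 CPM in Trem2+/+ females of LG73. None of the 6 was at 0 in all libraries, and their part in the members' values was not tested. Markers of other cell types varied between libraries as well. None of the oligodendrocyte, astrocyte, microglia, endothelial and choroid plexus markers was at 0 in all libraries. Of the 5 blood markers 3 were at 0 in all libraries, and the 5 summed to at most 0.96 CPM. The 5 oligodendrocyte markers summed to 6749.6 to 16681 CPM in R47H-TREM2 females and 4138 to 5160.1 CPM in Trem2+/+ females of LG72, without overlap. The 5 astrocyte markers summed to 2670.2 to 14302 CPM in R47H-TREM2 females and 1385 to 3624 CPM in Trem2+/+ females. The 6 microglia markers summed to 338 to 1004 CPM in R47H-TREM2 females and 309.7 to 381 CPM in Trem2+/+ females. The 5 choroid plexus markers summed to 341 to 3363 CPM in R47H-TREM2 females and 59.1 to 594 CPM in Trem2+/+ females.

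In males oligodendrocyte markers summed to 4584 to 13333 CPM with R47H-TREM2 and 3584 to 5517 CPM with Trem2+/+, with overlap. Choroid plexus markers summed to a median of 869 CPM in R47H-TREM2 males and 134 CPM in Trem2+/+ males, with overlap. Astrocyte markers summed to 2343 to 5925 CPM in R47H-TREM2 males and 4350 to 5253 CPM in Trem2+/+ males, and microglia markers to 392 to 782 CPM with R47H-TREM2 and 654 to 659.7 CPM with Trem2+/+. In WT-TREM2 females choroid plexus markers summed to 44.6 to 619 CPM, against 391 to 1616 CPM in Trem2+/+ females of LG73. The ranges of these groups also overlapped for oligodendrocyte, astrocyte and microglia markers. The part of these markers in the members' values was not tested.

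Over the 24 libraries astrocyte, microglia, oligodendrocyte, endothelial and choroid plexus marker scores had r of 0.32, 0.07, 0.36, 0.43 and 0.03 with the member score. Liver, pituitary, olfactory and striatal marker scores had r of 0.39, 0.40, 0.41 and 0.08 with the member score. After centring on group means these 4 were 0.53, 0.40, 0.56 and 0.18. Astrocyte, microglia, oligodendrocyte, endothelial and choroid plexus scores then had 0.21, −0.15, 0.16, 0.34 and −0.14, and the neuron score −0.80. The part of all these markers in the members' values was not tested.

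Genes that varied most like the members were mostly short. Of the 93 of the 100 most similar genes with a length, 61.3% were under 1000 nucleotides, and of the 100 least similar 0.0%. The 10 closest were Acot13, Fam162a, Psmb6, Uqcc2, Pfdn5, Eif3h, Mrpl18, Cox17, Cox7a2 and Ndufa6 (r = 0.97 to 0.98 with the score), which include subunits of the respiratory chain, the proteasome and eIF3. A list of 19 tested TOP-type translation genes had a median r of 0.86 with the score. Gnb2l1 (the older symbol of Rack1), the scaffold protein bound to the small subunit, reached 0.97 and the elongation factor Eef1a1 0.93. Tpt1 (0.88) and Eef2 (0.76), another elongation factor, followed. Fau, which joins a ubiquitin-like protein to a ribosomal protein, had 0.67 and Pabpc1 0.31. Nuclear genes of the respiratory chain (87 tested) had a median of 0.88 and mitochondrial ribosomal proteins (74 tested) 0.77. The 39 tested genes of ribosome assembly, in the nucleolus, had a median of −0.11, with Ncl at −0.29, Fbl at −0.01 and Npm1 at 0.66.

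The same lists differed in their fold changes. Respiratory chain genes had medians of 0.31, 0.60 and 0.33 in R47H-TREM2 females, R47H-TREM2 males and WT-TREM2 females over their references, with 76, 82 and 79 of 87 above 0. TOP-type genes had 0.38, 0.45 and 0.32, with 17, 16 and 15 of 19 above 0. Mitochondrial ribosomal proteins had 0.22, 0.35 and 0.32, with 59, 71 and 73 of 74 above 0. Ribosome assembly genes had 0.00, 0.02 and 0.07, with 20, 21 and 22 of 39 above 0. With the length slope as a covariate respiratory chain genes had 0.02, 0.18 and −0.04, and TOP-type genes 0.22, 0.02 and −0.02. Mitochondrial ribosomal proteins then had −0.01, 0.07 and 0.04, and ribosome assembly genes −0.03, −0.04 and 0.01. No gene of these lists was called in any of the 3 (edgeR). Npm1, a nucleolar chaperone, and Pabpc1, which binds poly(A) tails, had every R47H-TREM2 female above every Trem2+/+ female (0.63, SE 0.20, edgeR adjusted p = 0.202, and 0.52, SE 0.19, edgeR adjusted p = 0.251), where 3.59% of all genes did. In R47H-TREM2 males Npm1 stood at 0.05 and Pabpc1 at −0.15, and in WT-TREM2 females at −0.03 and −0.14, with overlapping groups.

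Levels differed widely between members. Per kilobase of transcript, means over 24 libraries ran over a 7349-fold range among the tested members. Rps15 (1558 CPM per kb), Rpl13a (1533), Rps14 (1256), whose loss marks the 5q deletion syndrome, Rplp1 (1230.4) and Rps21 (994) were highest. Rpl3l (0.212), Rpl39l (0.428), Rps13 (1.72), Rpl26 (2.50) and Rpl17 (3.87) were lowest. The 5 members with most counts held 34.3% of the members' counts, and the 33 with a mean under 30 CPM held 2.52%. Stalk protein Rplp0 had 346 CPM per kb and Rpsa, also a laminin receptor, 218. Rps6, the target of S6 kinase, had 25.8, Rps19, mutated in Diamond-Blackfan anaemia, 305, Rps3 598 and Rps20 53.2. Rpl5 (5.71) and Rpl11 (31.4), which bind Mdm2 with 5S ribosomal RNA, lay below the members' median of 69.8. Rps27a, made as a fusion with ubiquitin, had 10.7, Rps29 9.69 and Rps16 23.2. Rpl10 had 7.20, Rpl22 115, Rpl38 9.01, Rpl39 73.2 and the very short Rpl41 612.

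Rpl13a and Rps14, both among the members with most counts, varied widely between libraries. Rpl13a measured 2279, 627, 1304, 3347 and 4002 CPM in R47H-TREM2 females, against 2972, 920 and 709 CPM in Trem2+/+ females of LG72. In WT-TREM2 females it measured 609, 1995, 1453, 1137, 2273 and 1973 CPM, against 1453, 733 and 902 CPM in Trem2+/+ females of LG73. In both, the lowest library of the human-allele group lay below every reference. Rps14 measured 1323, 411, 672, 2351 and 2292 CPM in R47H-TREM2 females, against 2142, 499.8 and 439 CPM in Trem2+/+ females of LG72. In males it measured 476, 555, 777, 2329 and 695 CPM with R47H-TREM2, against 656 and 312 CPM in Trem2+/+ males. R47H-TREM2 female 2 was below all 3 references for this gene too, and male 4 stood well above the other males. For Rps3 and Rpl4, also among the members with most counts, female 2 (610.8 and 697.6 CPM) lay above the lowest reference (533.1 and 616.8 CPM).

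Paralogs within the list differed in level. Rpl3 stood 665-fold above Rpl3l per kilobase, Rpl39 171-fold above Rpl39l and Rps4x 14.3-fold above Rps4l, while Rps27 stood at 0.295 times Rps27l. Rps27 shared 98.5% of its 75-base words with transcripts of 9 other genes and Rps27l shared 12% with 4. Over the 80 tested members the share of such words was 43.1% at the median, and its Spearman correlation with log2 CPM per kb was −0.32. Members with over 50% shared had a median of 32.4 CPM per kb (34 members), and the others 96.8 (46 members). The sources used here do not state how reads matching several genes were counted, so the levels of members with near-identical copies are uncertain. Among members given above with low levels, Rpl5 shared 92.5%, Rpl10 84.9%, Rps6 84.1%, Rps27a 67.5% and Rpl11 61.0%. Others with low levels shared less, with Rpl38 at 36.3%, Rps16 at 35.5% and Rps29 at 30.7%. Of 7 pseudogenes with an entry, Rpl14-ps1 alone stood above its parent, at 449 CPM on average, with Rpl14 at 175 CPM. Rps15a-ps4, Rps15a-ps6, Rps19-ps3 and Rpl31-ps12 measured 0.729 to 5.55 CPM, with parents at 29.9 to 236 CPM. Rpl34-ps1 and Rplp2-ps1 had a mean of 0.

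**Figure D5:**
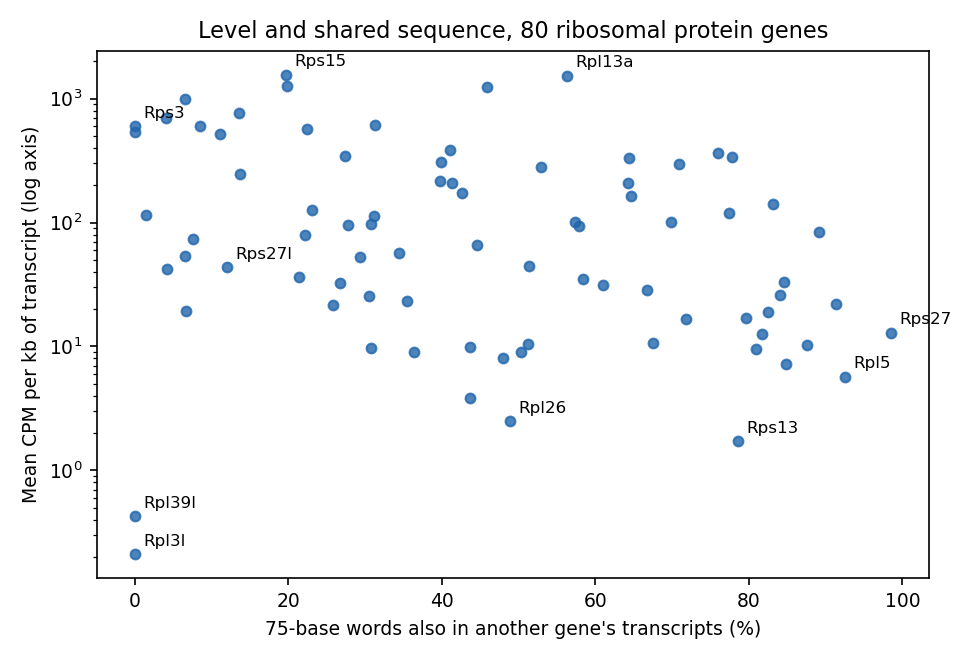
Mean level of 80 ribosomal protein genes, in CPM per kilobase on a log axis, against the percent of their 75-base words that also occur in transcripts of other genes. Rps13, Rpl26, Rpl5 and Rps27 lie low with 48.9% to 98.5% shared, and Rpl3l and Rpl39l lie lowest with 0.0% shared.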

How the data were processed

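Hippocampal RNA enriched with oligo(dT) beads was sequenced, and the authors deposited whole-number read counts per gene symbol, on build GRCm38 per the submitters' processing notes. Aligner, counting program, annotation and strand setting: not given in the sources used here. Another 18 columns matched no sample and were not used. Genes passing edgeR's filterByExpr (16118 of 24058) were TMM-scaled. All 24 libraries entered 1 quasi-likelihood fit (edgeR 4.0.16, R 4.3.3) with 6 group means. Benjamini-Hochberg adjustment covered every tested gene, and the call threshold was an adjusted p under 0.05. Levels are CPM with TMM factors, and log2 CPM used a prior count of 2. Transcript lengths and positions came from GENCODE M21 (GRCm38), with a length for 95.3% of tested genes.

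Within a group, 42 pairs of libraries differed beyond the noise of counting (lowest chi-square over its degrees of freedom, 11.1). A limit of 3 counts for a count of 0 covers counting error only. Depths of 13261478 to 23807390 counts leave counting error large for members with few counts. The lowest count in a library was 0 for Rpl3l and Rpl39l, 7 for Rps13, 8 for Rpl26 and 15 for Rps29, and 25 or more for the other tested members. The members, gene lists, tests and alternatives were chosen with earlier results of these data known, and 3 genes of hippocampal fields were added later. Genes named were the 5 members with the smallest p in each comparison, those of opposite sign, the 5 highest and lowest per kilobase, members with known roles, and the 10 non-members most like the score, with chosen translation genes, of which 1 is not reported here. Alternatives were size factors of DESeq2 1.42.0 and its Wald test, upper-quartile factors, TMM factors without the members, limma 3.58.1 voom with sample weights, no filter, the compared groups alone, the length slope as covariate, an adjusted p under 0.1, libraries split at 30 CPM of the liver gene Alb, no doubted libraries, and each library left out. The SE of a log2 fold change is its size over the square root of F. Simulated data were used to test the scripts.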

Additional observations from a re-analysis of the deposited data

Results flagged for a closer look

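R47H-TREM2 male 4 stood apart from the other 4 R47H-TREM2 males in 3 of the values examined. Ribosomal protein genes took 2.78% of its counts, against 1.20% to 1.64% in the others. Rps18, a small-subunit protein, measured 398 CPM there, against 137 to 204 CPM in the others, and Rps27l 47.5 CPM, against 16.2 to 19.5 CPM. In 69 groups of values examined for a library far from the rest, chance would flag about 1 in 20, or 3.45.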

How the results depend on the processing

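The number of members called was 0 in all 6 comparisons under every alternative, including an adjusted p under 0.1, DESeq2 and limma-voom. Over all genes DESeq2 called 180 in R47H-TREM2 females. Medians of the 3 genotype comparisons kept their sign under every alternative but the length covariate, with which WT-TREM2 females stood at −0.04 (32 of 80 above 0) and R47H-TREM2 males, still above 0, at 0.20. Over single libraries left out they ranged from 0.29 to 1.10, from 0.47 to 1.10 and from 0.29 to 0.49 for R47H-TREM2 females, R47H-TREM2 males and WT-TREM2 females. The effect in females minus that in males stood at 0.20 (58 of 80) with limma-voom and 0.05 (45) without the doubted libraries, had 38 above 0 with the covariate, and ran from −0.56 to 0.34 (7 to 63) with single libraries left out. The R47H minus the WT effect ran from −0.07 to 0.70 (29 to 77) with single libraries left out. Trem2+/+ of LG72 minus LG73 stood at −0.02 (39) without the doubted libraries and from −0.16 to 0.70 (17 to 75) with single libraries left out. Signs turned for single genes in R47H-TREM2 females without the doubted libraries: Rps4l 0.05, Rpl3l 0.85 and Rps7 1.07, and Rps7 stood at 0.39 with limma-voom and −0.60 to 0.70 with single libraries left out. In WT-TREM2 females Rpl10 ran from −0.22 to 0.13 and Rps18 from −0.33 to 0.04. The cause was not tested. Split at an Alb of 30 CPM, most parts had 1 Trem2+/+ library, and medians are given with no test. Those above and below were 1.05 (2 against 2) and 0.40 (3 against 1) in LG72 females, 0.52 (4 against 1) and 0.60 (1 against 1) in males, and 0.30 (4 against 1) and 0.08 (2 against 2) in LG73 females. At an unadjusted p under 0.05, 12, 17 and 0 members were higher in the 3 comparisons and 0 were lower. With the compared groups fitted alone 3, 29 and 6 were higher and 0, 0 and 1 lower. The share of all genes in these fits is not given here, so these counts show only that the number moved with the fit. With the covariate 5, 4 and 0 members were higher and 1, 0 and 2 lower. Of all 16118 genes, 1476, 381 and 211 were then higher and 1033, 293 and 198 lower. The correlation of score and slope ran from −0.94 to −0.79. No paired analysis was possible because the labels do not pair libraries across groups.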
